A study of Taeniopygia guttata with 5 samples.

Results

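The transcripts described here are those listed for a difference between adult and juvenile HVC of the male zebra finch. HVC is a nucleus of the songbird forebrain in which the motor command for learned song is organised. It sends axons to RA, the nucleus that drives the vocal motor neurons, and to Area X, a striatal nucleus needed for learning. It also holds local inhibitory interneurons, and in songbirds it goes on adding neurons born along the lateral ventricle after hatching. At 45 d a young male is still practising a variable song and at 100 d the song of an adult has become stereotyped, so the comparison asks which genes and gene classes were higher or lower once song was fixed. The deposited table holds raw read counts for 1800 transcripts, of 4675 in all tables of the series, and all 1800 were taken as members. They carry 1759 gene identifiers, 1447 of them have a gene symbol, and 1731 are annotated as protein-coding.

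The adult group was 1 library of HVC from males at 100 d (R92L3), and the juvenile group was 2 libraries of HVC from males at 45 d (R92L1 and R92L2). The study's methods describe RNA of 4 birds of an age pooled into a library, so birds were averaged before sequencing. The series also holds 1 library of whole brain at 100 d and 1 at 45 d, each from 2 birds. The whole brain columns carry another run label than those of HVC. No library size was computed for them, so whole brain reads are raw and unscaled wherever they are given. No treatment was given, and the birds had neither sung nor heard song in the hour before the tissue was taken. The juveniles were kept with their parents, while the adults had by then been moved to group cages, so age and housing cannot be told apart. HVC was cut from sagittal slices by hand and lies against the ventricle, so the tissue may include cells of the ventricular zone. Neither the labels nor the methods say that R92L1 and R92L2 came from separate birds, and p-values here rest on how far these 2 libraries lie apart, which can be a technical spread alone. In bulk tissue, fewer cells of a type and less RNA per cell cannot be told apart.

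The tissue was checked against markers of HVC. Of 10 genes known for high levels in HVC, 9 had counts in all 5 libraries, and 8 of these had more raw reads in every HVC library than in either whole brain library. Counts are given only for transcripts that the authors listed for a difference, which included HVC against whole brain. This share therefore follows in part from that choice. CRHBP, which binds the stress peptide CRH, had 1670 reads at 100 d, against 1265 and 1160 at 45 d, and 251 and 258 reads in whole brain at 100 d and 45 d. ALDH1A2, the enzyme that makes retinoic acid in HVC projection neurons, had 1575 reads at 100 d, against 1858 and 2961 at 45 d, and 249 and 423 in whole brain at 100 d and 45 d. The summed reads of the 10 HVC genes were 9674 at 100 d, against 8672 and 12096 at 45 d, so in this sum the 100 d library lay between the 45 d libraries. The single genes were not alike. Of the 6 that are listed for age, 2 were above both 45 d libraries and 4 below both. No marker of blood cells was among the transcripts with counts in the HVC libraries. As counts are given only for listed transcripts, this does not show that blood was absent. TTR-1 is the carrier protein made in bulk by the choroid plexus. It had 11 reads at 100 d and 9 and 18 reads at 45 d, against 1240 and 1401 reads in whole brain.

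Several of the members were also assayed by quantitative PCR in the study. The primers are given 5′ to 3′ for 6 members to which the results below return. All are in lower case because no part is singled out, and none was placed on the genome here.

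ISG12 forward: ttaggcatatcctgagtttag
ISG12 reverse: taccctttgctgagtgttt
LY6E-2 forward: tctcctactcctggcatt
LY6E-2 reverse: gtgcccagtttctgttta
RASGRP1 forward: tccgtgagactgaaacca
RASGRP1 reverse: tgcctggagatagggatt
RGS10-2 forward: gagactaatgcagcaaacac
RGS10-2 reverse: actcttaatgcctaccacag
IL16 forward: gccgttaattcccacctt
IL16 reverse: atgacacctggctgctga
CD200 forward: aaagtgaggatgggtgatagtg
CD200 reverse: catgtgattcctctgagtcctt

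The primers are 18 to 22 bases long in these pairs. LY6E-2 and RGS10-2 carry a number because the annotation holds further transcripts under the same symbol, and reads from such copies may have been split between them.

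A transcript was counted as beyond the juvenile libraries only where its raw count at 100 d lay above both, or below both, 45 d counts. This held for 963 of the 1800 above (53.5%) and 796 below (44.2%), and the other 41 (2.28%) were not beyond both. The authors chose the listed transcripts by their own p-value for this comparison, so a high share beyond both follows from the choice. Among 716 transcripts listed in other tables but not for age, which also have counts in all 3 HVC libraries, 175 were above both (24.4%) and 170 below both (23.7%). At least 2-fold differences after scaling were seen in 457 listed transcripts higher at 100 d (25.4%) and 431 lower (23.9%). The median log2 fold change over the 1661 listed transcripts with at least 10 reads was 0.49. It was 0.87 for those above both and -0.98 for those below both.

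With 1 adult library the test could rest only on the spread of the juvenile libraries. In edgeR's quasi-likelihood test with Benjamini-Hochberg adjustment over the 11258 transcripts that the authors tested, 0 of 2345 fitted transcripts passed an adjusted p of 0.1 in either direction (0% higher and 0% lower), and the smallest adjusted p was 0.406. At an unadjusted p of 0.05 there were 241 listed transcripts higher at 100 d (14.5% of 1661) and 263 lower (15.8%). Other tests called a few. DESeq2 called 2 higher (0.0853%) and 0 lower, limma-voom called 0, and the exact test of edgeR, in which all transcripts share 1 dispersion so that a transcript's own spread between the juveniles is not used, called 25 higher (1.07%) and 10 lower (0.426%). A quasi-likelihood fit over the listed transcripts alone called 10 higher (0.602%) and 4 lower (0.241%). Of the calls of the exact test 15 higher and 7 lower have a gene symbol. ISG12, SLC5A7, LHX8, RASGRP1, TAC1, HTR2A and RGS10-2 are among them, with adjusted p-values of 1.95e-10, 5.06e-07, 0.000105, 0.000114, 0.000241, 0.00028 and 0.00047 in that exact test of edgeR. The differences below are therefore given as the reads of each library, with the log2 fold change and its standard error (SE) from edgeR's quasi-likelihood fit, and none of them passed that test after adjustment.

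The juvenile libraries also differed from each other. Of 1952 transcripts that had 20 or more reads over the pair, 34.5% differed between R92L1 and R92L2 by more than counting noise, and 186 were over 2-fold apart. Relative library sizes were 1 for R92L3, against 0.91 for R92L1 and 1.10 for R92L2, and the reads given below are raw reads.

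**Figure D1:**
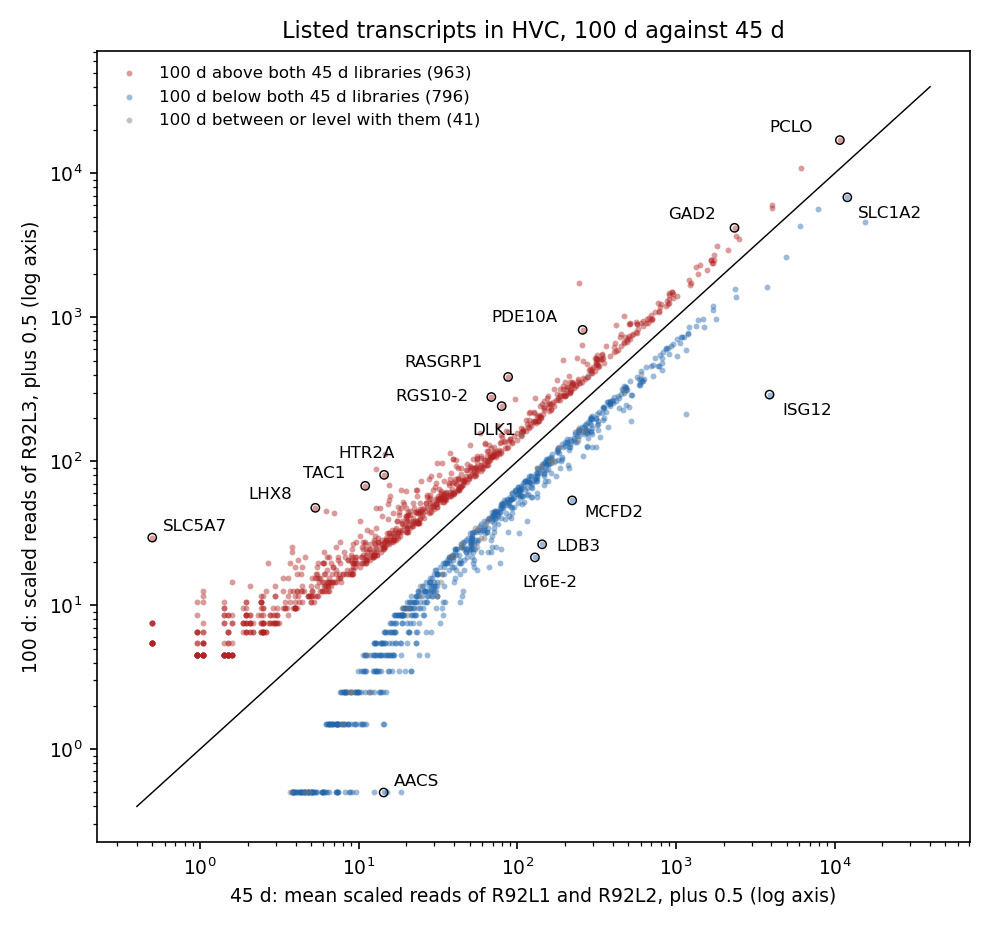
Each point is 1 of the 1800 listed transcripts, with reads divided by the library sizes, at 100 d on the vertical axis and as the mean of both 45 d libraries on the horizontal axis, both log axes with 0.5 added. The 963 transcripts above both 45 d libraries lie over the diagonal and the 796 below both under it, and ISG12 and the row of transcripts with no read at 100 d lie farthest below.

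Of the listed transcripts with a gene symbol and a mean of at least 20 reads, the 3 with the smallest p among those higher at 100 d were PDE10A, RGS10-2 and RASGRP1. PDE10A, a phosphodiesterase that breaks down cAMP and cGMP and is abundant in striatal neurons, had 818 reads at 100 d, against 229 and 290 at 45 d (log2 fold change 1.66, SE 0.23). It lies on chromosome 3 from 39296180 to 39458290 (taeGut1, as are all positions here). RGS10-2, a protein that speeds the switching off of G proteins, had 279 reads at 100 d, against 61 and 76 at 45 d (log2 fold change 2.03, SE 0.29), and lies on chromosome 6 from 30566320 to 30580076. RASGRP1, an exchange factor that activates Ras in response to diacylglycerol and calcium, had 385 reads at 100 d, against 64 and 114 at 45 d (log2 fold change 2.14, SE 0.31), and lies on chromosome 5 from 30163902 to 30196428. In edgeR's quasi-likelihood test each of the 3 had an adjusted p of 0.406. All 3 lay far above both juvenile libraries, while the juvenile libraries were close to each other for PDE10A and RGS10-2 and less so for RASGRP1. A small p favours a wide gap over a close pair. As the 3 were picked by their p, this gap is no separate support. PDE10A and RASGRP1 were also the 2 transcripts that DESeq2 called, each with an adjusted p of 0.0728.

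Further transcripts in this group code for a receptor, a peptide and surface proteins. HTR2A, the serotonin receptor 2A, had 80 reads at 100 d, against 13 and 15 at 45 d (log2 fold change 2.51, SE 0.44). TAC1, the precursor of substance P, had 67 reads at 100 d, against 10 and 11 at 45 d (log2 fold change 2.66, SE 0.46). DLK1, a Notch-like membrane protein known for holding precursor cells undifferentiated, had 241 reads at 100 d, against 73 and 86 at 45 d (log2 fold change 1.60, SE 0.29). In edgeR's quasi-likelihood test each of the 3 had an adjusted p of 0.539. In these 3 the adult count was far above a pair of juvenile counts that differed little. This again follows in part from their choice by p. PPL, the desmosome-linked cytolinker periplakin, had 647 reads at 100 d, against 238 and 271 at 45 d (log2 fold change 1.35, SE 0.24), and DSP, desmoplakin of the same junctions, had 270 reads at 100 d, against 64 and 133 at 45 d (log2 fold change 1.49, SE 0.36).

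Of the transcripts lower at 100 d, under the same minimum, the one with the smallest p was ISG12, a small membrane protein induced by interferon. ISG12 had 290 reads at 100 d, against 2263 and 5818 at 45 d, so its scaled level was 13.9-fold lower in the adult library (log2 fold change -3.75, SE 0.51), and it lies on chromosome 2 from 94975562 to 94980116. The juvenile libraries themselves differed in ISG12 by more than the scaling, yet both lay far above the adult one. LDB3, a protein of the muscle Z disc that links actin to kinases, had 26 reads at 100 d, against 121 and 168 at 45 d (log2 fold change -2.45, SE 0.38), and lies on chromosome 6 from 8046485 to 8100090. MCFD2, a calcium-binding cofactor for export of proteins from the endoplasmic reticulum, had 53 reads at 100 d, against 200 and 245 at 45 d (log2 fold change -2.06, SE 0.32), and lies on chromosome 3 from 8124064 to 8127555. LY6E-2, a membrane-anchored member of the Ly6 family that is also induced by interferon in mammals, had 21 reads at 100 d, against 91 and 173 at 45 d (log2 fold change -2.61, SE 0.47), and lies on chromosome 2 from 155464235 to 155470366. In edgeR's quasi-likelihood test the adjusted p was 0.406 for ISG12, 0.425 for LDB3 and MCFD2 and 0.539 for LY6E-2. In whole brain, ISG12 had 156 reads at 100 d, against 937 at 45 d, and LDB3 had 25 reads at 100 d, against 56 at 45 d, with no replicate.

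Further genes in this direction act in development and metabolism. NEUROD6, a transcription factor of excitatory forebrain neurons, had 238 reads at 100 d, against 484 and 531 at 45 d (log2 fold change -1.09, SE 0.26). DBI, a carrier of acyl-CoA esters that also acts on GABA-A receptors, had 125 reads at 100 d, against 345 and 276 at 45 d (log2 fold change -1.33, SE 0.35). NEUROD6 lay well below a juvenile pair that was close. DBI also lay below both, but its juvenile libraries were farther apart, and more so after scaling. Both are among those with the smallest p, which favours a wide gap. FZD10, a receptor for Wnt proteins, had 10 reads at 100 d, against 41 and 45 at 45 d (log2 fold change -2.09, SE 0.54), and LMO1, a LIM-only transcriptional cofactor, had 227 reads at 100 d, against 456 and 462 at 45 d (log2 fold change -1.02, SE 0.27). IFRD1, a regulator of transcription named for its link to interferon, had 172 reads at 100 d, against 314 and 438 at 45 d (log2 fold change -1.11, SE 0.28).

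**Figure D2:**
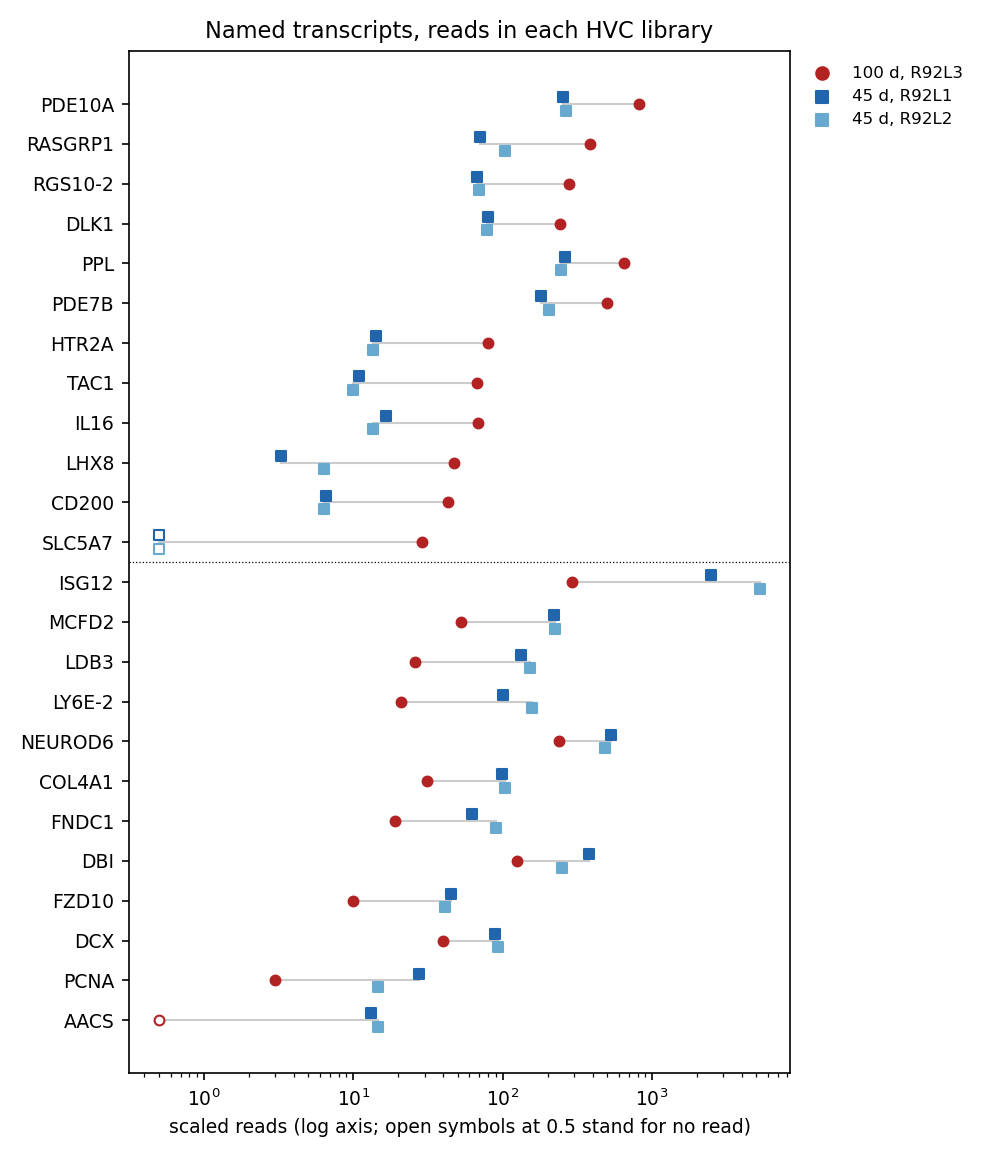
Reads divided by the library sizes (horizontal log axis) of 12 transcripts higher at 100 d, above the dotted line, and 12 lower, with 1 circle for the 100 d library and 1 square for each 45 d library. For every transcript shown the circle lies outside both squares, and open symbols mark the transcripts with no read, SLC5A7 at 45 d and AACS at 100 d.

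Some transcripts were seen at 1 age only. Among the listed, 14 had no read in either 45 d library and 72 had none at 100 d. SLC5A7, the choline transporter of cholinergic nerve endings, had 29 reads at 100 d and none in either 45 d library, which with a floor of 3 reads over the juvenile group puts it at least 19.4-fold higher at 100 d, and no other transcript absent at 45 d had more reads. The next among named genes were CLCN2, a chloride channel, MMRN1, a clotting protein of platelets and vessels, and WDFY4, a protein of antigen-presenting cells, each with 7 reads at 100 d and none at 45 d (at least 4.69-fold higher). In the other direction, among named genes, AACS, which feeds ketone bodies into lipid synthesis, had 0 reads at 100 d, against 12 and 16 at 45 d (at least 4.65-fold lower), PBLD, an isomerase-like protein, had 0 against 9 and 21 (at least 4.98-fold lower), and KCNK17, a potassium leak channel, had 0 against 7 and 18 (at least 4.15-fold lower). These floors cover counting error only. The AACS entry is short and not placed on a chromosome (36740932 to 36741881), and whether it covers the whole gene was not checked. SYT16, a synaptotagmin-like protein, and OCIAD2 were likewise without a read at 100 d, against 9 and 8 reads for SYT16 and 10 and 8 reads for OCIAD2 at 45 d.

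**Figure D3:**
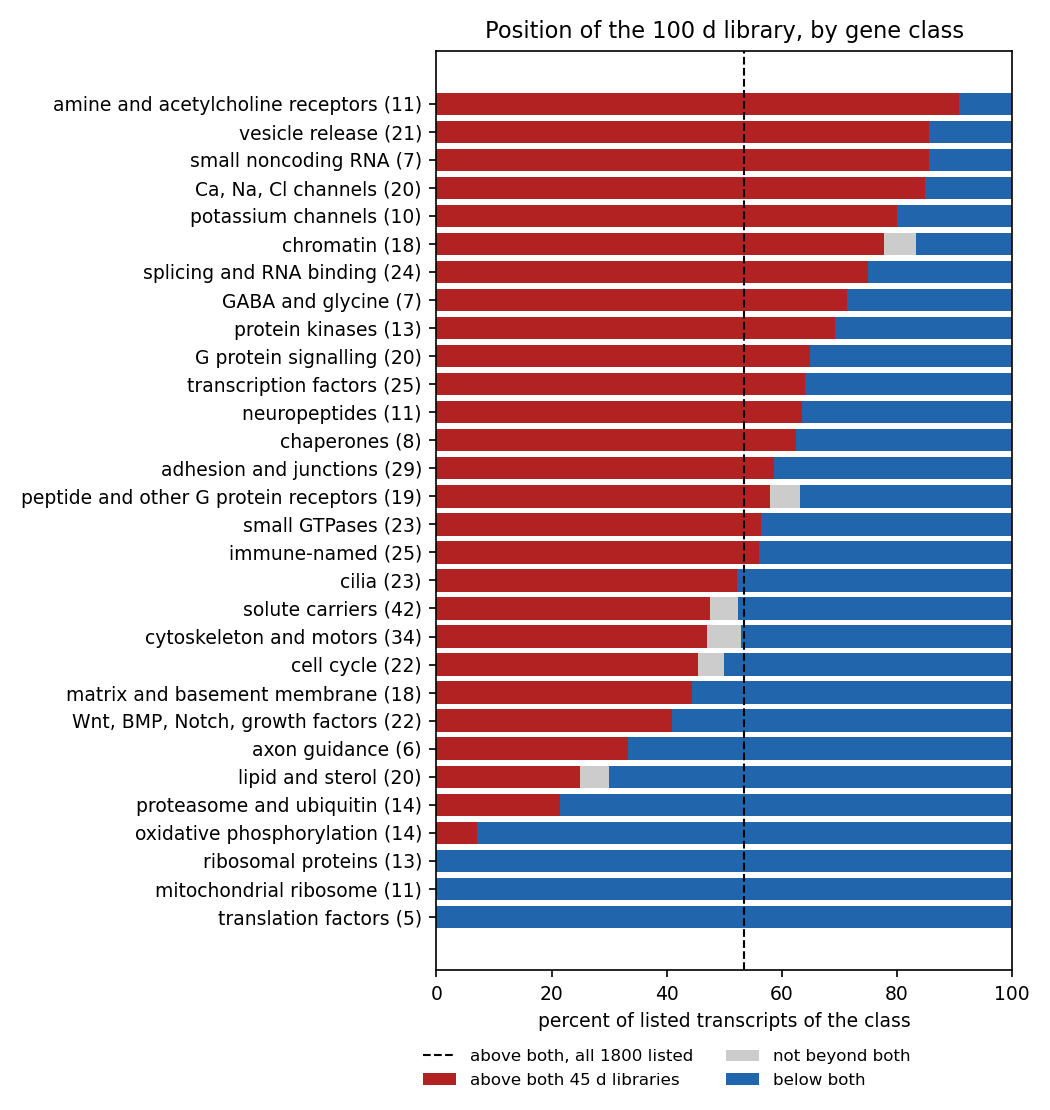
Each bar is a gene class with at least 5 listed transcripts (number in brackets), split by the share above both 45 d libraries, not beyond both, and below both. The dashed line marks the 53.5% of all listed transcripts that were above both, and receptors for amines and acetylcholine lie farthest above it, while ribosomal proteins, mitochondrial ribosomal proteins and translation factors lie at 0%.

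The gene classes are described by counts, to be read beside those of all listed transcripts, of which 53.5% were above both 45 d libraries and 44.2% below both, and 14.5% of those fitted were higher and 15.8% lower at an unadjusted p of 0.05. None of the differences between a class and all listed transcripts was tested. For synaptic signalling, of 21 listed transcripts of vesicle release, 18 were above both 45 d libraries and 3 below both, of 20 calcium, sodium and chloride channels 17 were above and 3 below, and of 10 potassium channels 8 were above and 2 below. At an unadjusted p of 0.05 in edgeR's quasi-likelihood test there were 6 release genes, 7 of these channels and 1 potassium channel higher, and 1 of each class lower. The potassium channels were also even at 2-fold, with 2 higher and 2 lower. The median log2 fold changes of these classes were 0.64, 0.80 and 0.69. The 0.49 over all listed is no scale for them, since it mainly follows which direction holds more transcripts. It lies between medians of 0.87 for listed transcripts above both and -0.98 for those below both. PCLO, piccolo, a scaffold of the presynaptic active zone, had 17037 reads at 100 d, against 9400 and 12378 at 45 d (log2 fold change 0.66, SE 0.21), the most reads in its class. CADPS2, which primes dense-core vesicles, had 2492 reads at 100 d, against 1289 and 2086 at 45 d (log2 fold change 0.59, SE 0.26), and STX18-1, a syntaxin of the endoplasmic reticulum, had 925 reads at 100 d, against 551 and 565 at 45 d (log2 fold change 0.73, SE 0.24). The members below both were SYT16, SYT13, another synaptotagmin, with 126 reads at 100 d, against 191 and 196 at 45 d, and RIMS4, a small active zone protein, with 32 reads at 100 d, against 58 and 46 at 45 d.

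Among the channels, RYR2, the ryanodine receptor that releases calcium from internal stores, had 10861 reads at 100 d, against 5580 and 6753 at 45 d (log2 fold change 0.82, SE 0.21). ANO3, a member of the anoctamin family, had 979 reads at 100 d, against 583 and 735 at 45 d (log2 fold change 0.58, SE 0.23), and CFTR, a chloride channel gated by cAMP-dependent phosphorylation, had 102 reads at 100 d, against 36 and 46 at 45 d (log2 fold change 1.32, SE 0.36). CACNA1B, the pore of N-type calcium channels at nerve endings, had 268 reads at 100 d, against 144 and 212 at 45 d. The adult count was the highest of the 3 in each of these 4. KCNC2, a fast delayed rectifier (Kv3) used by fast-spiking neurons, had 515 reads at 100 d, against 292 and 349 at 45 d (log2 fold change 0.69, SE 0.24), and KCNN2, a calcium-gated potassium channel of small conductance, had 108 reads at 100 d, against 54 and 75 at 45 d. KCNK12, a member of the leak channel family like KCNK17, was in the other direction, with 8 reads at 100 d, against 21 and 21 at 45 d.

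Receptors for amines and acetylcholine were the class with the largest share above. Of 11 listed, 10 were above both 45 d libraries and only CHRM5, a muscarinic acetylcholine receptor with 50 reads at 100 d, against 71 and 92 at 45 d, was below, and the class had a median log2 fold change of 1.25. Beside HTR2A, CHRM4, the muscarinic receptor that couples to inhibitory G proteins, had 156 reads at 100 d, against 61 and 53 at 45 d (log2 fold change 1.44, SE 0.35). DRD5, a dopamine receptor that raises cAMP, had 50 reads at 100 d, against 15 and 23 at 45 d (log2 fold change 1.41, SE 0.46), and HTR1A, an inhibitory serotonin receptor, had 20 reads at 100 d, against 6 and 8 at 45 d. CHRNA5, a subunit of nicotinic receptors, was the closest to overlap, with 182 reads at 100 d, against 89 and 154 at 45 d (log2 fold change 0.61, SE 0.33). Metabotropic glutamate receptors were split, since GRM2 had 236 reads at 100 d, against 141 and 179 at 45 d, while GRM3, known for high levels in HVC, had 976 reads at 100 d, against 1542 and 2051 at 45 d (log2 fold change -0.87, SE 0.24).

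Of 7 listed genes of inhibitory transmission, 5 were above both 45 d libraries and 2 below, beside 53.5% above over all listed. GAD2, which makes GABA from glutamate at nerve endings, had 4186 reads at 100 d, against 2242 and 2434 at 45 d (log2 fold change 0.84, SE 0.22), and GAD1-1, the other GABA-making enzyme, had 1249 reads at 100 d, against 909 and 874 at 45 d (log2 fold change 0.48, SE 0.25). The GABA-A receptor subunit annotated as GABRB1-2 had 57 reads at 100 d, against 26 and 19 at 45 d, and GABRB1-1 had 56 reads at 100 d, against 19 and 35 at 45 d. These 4 were above both juvenile libraries. The members below both were transporters that clear the transmitters, SLC6A11 for GABA with 177 reads at 100 d, against 265 and 267 at 45 d, and SLC6A9 for glycine with 42 reads at 100 d, against 74 and 67 at 45 d, both known from mammals to be carried largely by astrocytes. The marker list for inhibitory interneurons summed to 7327 reads at 100 d, against 4681 and 4959 at 45 d, and GAD2 made up most of it. The members of that list besides GAD2 and GAD1-1, none of them listed for age, were mixed. PVALB-2, annotated as parvalbumin, had 1183 reads at 100 d, against 778 and 1112 at 45 d, while PVALB-1 had 22 reads at 100 d, against 23 and 39 at 45 d. CALB2, calretinin, had 7 reads at 100 d, against 10 and 13 at 45 d, and RELN, reelin, had 680 reads at 100 d, against 719 and 487 at 45 d. Striatal projection neurons also use GABA, and their markers are given below. The part of such cells in the reads of GAD2 and GAD1-1 was not tested.

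Among intracellular signalling genes, of 20 listed genes of G protein signalling 13 were above and 7 below (65.0% above), and of 13 protein kinases 9 were above and 4 below (69.2% above). Small GTPases and their regulators, at 13 above and 10 below of 23 (56.5% above), were near the 53.5% of all listed. RGS12, a further accelerator of G protein inactivation, had 1017 reads at 100 d, against 463 and 480 at 45 d (log2 fold change 1.11, SE 0.24), and GNAI1, an inhibitory G protein, had 3667 reads at 100 d, against 2140 and 2657 at 45 d (log2 fold change 0.62, SE 0.22). CAMK2B-1, a subunit of the calcium and calmodulin-dependent kinase of synapses, had 903 reads at 100 d, against 496 and 535 at 45 d (log2 fold change 0.81, SE 0.23). RAPGEF1, an exchange factor for Rap1, had 550 reads at 100 d, against 291 and 349 at 45 d (log2 fold change 0.79, SE 0.24). In all 4 the adult count stood clear of a close juvenile pair. PRKCB, a protein kinase C, was in the other direction, with 86 reads at 100 d, against 141 and 148 at 45 d.

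Several of the genes higher at 100 d are markers of striatal projection neurons, which make up most of the striatum and Area X. All 7 listed genes of that marker list were above both 45 d libraries, and the list summed to 1610 reads at 100 d, against 482 and 596 at 45 d. Beside PDE10A, TAC1 and CHRM4, PDE7B, another cyclic nucleotide phosphodiesterase, had 503 reads at 100 d, against 165 and 225 at 45 d (log2 fold change 1.38, SE 0.25). RGS9, a brake on dopamine and opioid receptor signalling, had 38 reads at 100 d, against 11 and 8 at 45 d, and DRD2, the dopamine receptor D2, had 19 reads at 100 d, against 5 and 6 at 45 d. ADORA2A, an adenosine receptor of striatal cells, had 8 reads at 100 d, against 1 and 2 at 45 d, a ratio with an exact 95% counting interval of 1.29 to 31.3. ISL1, a transcription factor of developing striatal cells, was the only other member with counts. It was not listed, with 1 read at 100 d, against 0 and 1 at 45 d. The remaining 15 of the 23 genes in the list had no counts for all 3 HVC libraries. None of these 15 was listed for age under its symbol, so the 7 are only the part of the list chosen for a difference.

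Markers of cholinergic neurons of the basal forebrain were higher at 100 d too. All 3 listed members were above both 45 d libraries, and with the 2 unlisted members that had counts they summed to 88 reads at 100 d, against 5 and 11 at 45 d. LHX8, a transcription factor that specifies these neurons in mammals, had 47 reads at 100 d, against 3 and 7 at 45 d (log2 fold change 3.22, SE 0.56). CHAT, which makes acetylcholine, had 11 reads at 100 d, against 2 and 2 at 45 d, and SLC5A7 is given above. In raw reads of whole brain, not scaled for depth, these genes were close between ages. LHX8 had 165 reads at 100 d, against 163 at 45 d, CHAT 63 at 100 d, against 55 at 45 d, and SLC5A7 86 at 100 d, against 74 at 45 d. Whether the adult dissection held more tissue from outside HVC was not tested, and it rests on the single adult library.

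**Figure D4:**
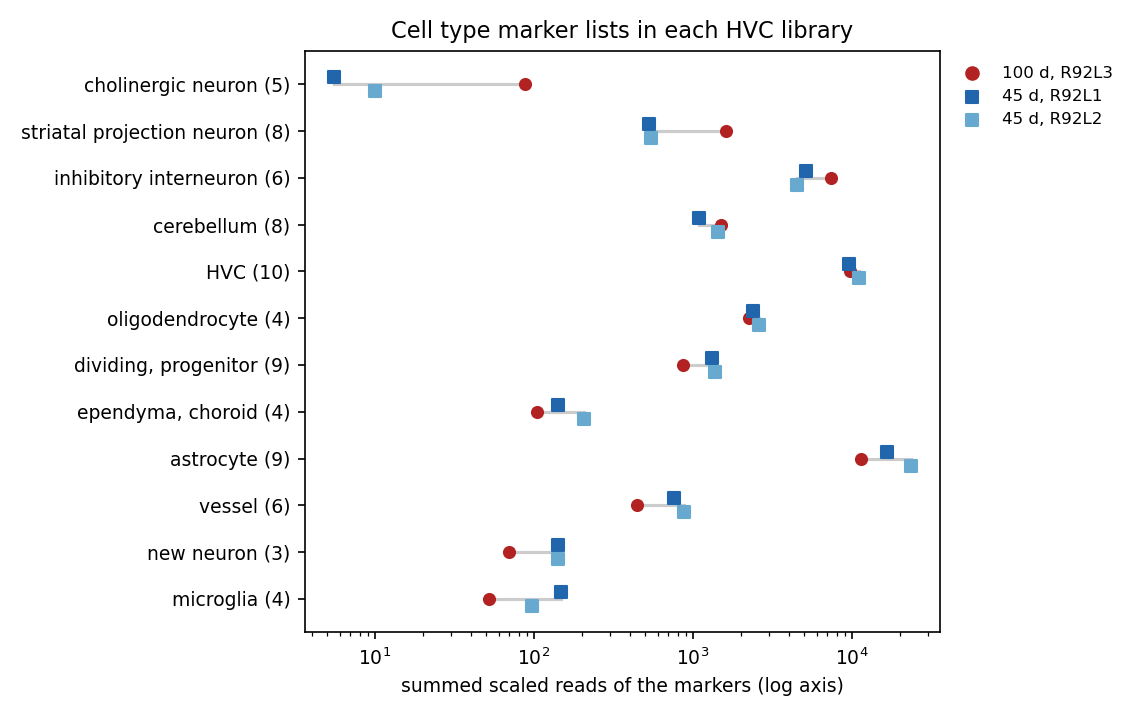
Summed reads of each cell type marker list after division by the library sizes, on a log axis, with the number of transcripts counted in brackets and 1 symbol per HVC library. Cholinergic and striatal lists lie higher at 100 d than in both 45 d libraries. So do the inhibitory list, whose sum is mostly GAD2, and the cerebellum list, whose sum is mostly PVALB-2. The HVC list lies between the 45 d libraries. The astrocyte, oligodendrocyte, vessel, ependyma, dividing, new neuron and microglia lists lie lower.

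Immune-named genes were split between the directions. Of 25 listed, 14 were above both 45 d libraries and 11 below. Of those above, CD200, a surface protein by which neurons restrain microglia, had 43 reads at 100 d, against 6 and 7 at 45 d (log2 fold change 2.71, SE 0.51), and lies on chromosome 1 from 114120531 to 114123644. IL16, a cytokine precursor with a form found in neurons, had 68 reads at 100 d, against 15 and 15 at 45 d (log2 fold change 2.17, SE 0.45), and lies on chromosome 10 from 12005530 to 12009855. CD59, an inhibitor of complement, had 635 reads at 100 d, against 271 and 464 at 45 d. Of those below, beside ISG12, LY6E-2 and IFRD1, IFIT5, an RNA-binding protein induced by interferon, had 4 reads at 100 d, against 12 and 19 at 45 d. CD74, the invariant chain of MHC class II, had 17 reads at 100 d, against 77 and 29 at 45 d (log2 fold change -1.69, SE 0.77), with a wide gap between the juvenile libraries. The microglial list summed to 52 reads at 100 d, against 134 and 106 at 45 d, with CD74, DOCK2 and SPI1 below both and the receptor CX3CR1 above both at 7 reads, against 1 and 2 at 45 d. The part of microglial number in these values was not tested.

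Genes of protein synthesis were lower at 100 d without exception among those listed. All 13 ribosomal proteins, all 5 translation factors and all 11 mitochondrial ribosomal proteins were below both 45 d libraries, beside 44.2% of all listed transcripts. At an unadjusted p of 0.05 in edgeR's quasi-likelihood test 6 ribosomal proteins, 2 translation factors and 5 mitochondrial ribosomal proteins were lower. The median log2 fold changes were -0.91, -0.76 and -1.09. RPL27, a protein of the large ribosomal subunit, had 163 reads at 100 d, against 286 and 295 at 45 d (log2 fold change -0.84, SE 0.28), and RPS6 of the small subunit had 163 reads at 100 d, against 202 and 368 at 45 d. EEF1B2, an exchange factor of elongation, had 556 reads at 100 d, against 820 and 1005 at 45 d (log2 fold change -0.71, SE 0.24). EEF1A1, which brings aminoacyl-tRNA to the ribosome, had 5658 reads at 100 d, against 6043 and 10026 at 45 d (log2 fold change -0.48, SE 0.27), so its adult count was close to that of R92L1. A further 11 ribosomal proteins had counts but were not listed for age, and of these 4 were below both and 1 above both. RPS2, RPL27 and their like have processed copies in many genomes, and reads may have been split among them.

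Mitochondrial energy genes showed the same side. Of 14 listed genes of oxidative phosphorylation 13 were below both and 1 above. SDHD, an anchor of succinate dehydrogenase, had 18 reads at 100 d, against 80 and 49 at 45 d (log2 fold change -1.86, SE 0.59), NDUFB3 of complex I had 93 reads at 100 d, against 230 and 178 at 45 d (log2 fold change -1.15, SE 0.38), and ATP5G3, a membrane subunit of ATP synthase, had 278 reads at 100 d, against 401 and 408 at 45 d. The member above both was NDUFAB1, an acyl carrier protein attached to complex I, with 547 reads at 100 d, against 387 and 288 at 45 d (log2 fold change 0.67, SE 0.32). Of 11 listed mitochondrial ribosomal proteins, MRPS17 had 73 reads at 100 d, against 127 and 173 at 45 d (log2 fold change -1.02, SE 0.33), and MRPL20 had 8 reads at 100 d, against 32 and 35 at 45 d.

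The proteasome and ubiquitin genes were lower in 11 of 14 and higher in 3, beside 44.2% of all listed transcripts below both. At 2-fold they were even, with 1 higher and 1 lower. UBB-2, a polyubiquitin gene, had 244 reads at 100 d, against 534 and 423 at 45 d (log2 fold change -0.99, SE 0.33), and PSMB2, a subunit of the core proteasome, had 179 reads at 100 d, against 256 and 384 at 45 d. UBE2A, a ubiquitin-conjugating enzyme, had 6 reads at 100 d, against 11 and 37 at 45 d, and PSMD10, an assembly factor of the regulatory particle, was above both with 264 reads at 100 d, against 155 and 209 at 45 d. Chaperones were split, with 5 of 8 above and 3 below. HSP90AA1, the inducible cytosolic HSP90, had 518 reads at 100 d, against 198 and 283 at 45 d (log2 fold change 1.12, SE 0.25), while HSPD1, the mitochondrial chaperonin, had 606 reads at 100 d, against 779 and 967 at 45 d (log2 fold change -0.52, SE 0.24). The HSP90AA1 entry is short and not placed on a chromosome (111456962 to 111458206), and whether it covers the whole gene was not checked.

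All 4 listed genes of the young neuron class were below both 45 d libraries, beside 44.2% of all listed. NEUROD6, given above, is among them and also marks mature excitatory neurons. DCX, a microtubule protein of migrating neurons that marks new neurons in adult songbirds, had 40 reads at 100 d, against 81 and 102 at 45 d (log2 fold change -1.18, SE 0.38). DPYSL3, a protein of growing axons, had 20 reads at 100 d, against 41 and 45 at 45 d (log2 fold change -1.10, SE 0.49), and TMSB10, an actin-binding peptide, had 11 reads at 100 d, against 45 and 13 at 45 d, nearly overlapping R92L2. EOMES, a marker of neuronal precursors that is not listed for age, was in the other direction, with 10 reads at 100 d, against 7 and 8 at 45 d. Axon guidance genes were few, with 2 of 6 above and 4 below. SEMA3A, a repellent for growing axons, had 102 reads at 100 d, against 169 and 131 at 45 d (log2 fold change -0.58, SE 0.37), and PLXNA2, a receptor for semaphorins, had 106 reads at 100 d, against 59 and 77 at 45 d. CRIPT, which binds the postsynaptic scaffold PSD-95 and microtubules, had 126 reads at 100 d, against 183 and 381 at 45 d (log2 fold change -1.12, SE 0.39).

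Of 22 listed cell cycle genes 10 were above both and 11 below both. The marker list for dividing cells and progenitors, which shares genes with this class and adds markers of radial glia, had 2 above and 6 below of 8 listed, and summed to 864 reads at 100 d, against 1198 and 1516 at 45 d. VIM, vimentin, had 348 reads at 100 d, against 466 and 743 at 45 d, and together with FABP7 it made up most of that sum. PCNA, the sliding clamp of DNA replication, had 3 reads at 100 d, against 25 and 16 at 45 d, a ratio with an exact 95% counting interval of 0.0291 to 0.461, and GMNN, an inhibitor of re-replication, had 43 reads at 100 d, against 95 and 89 at 45 d (log2 fold change -1.10, SE 0.39). MKI67-5, part of the annotation of the proliferation marker Ki-67, had 0 reads at 100 d, against 4 and 5 at 45 d. CCNB2, a mitotic cyclin, was above both with 28 reads at 100 d, against 14 and 15 at 45 d, and so was KIF20A-1, a mitotic kinesin, with 21 reads at 100 d, against 4 and 8 at 45 d. Counts of this size allow wide errors, and only 15 of the 22 had at least 30 reads.

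Astrocyte markers were lower at 100 d in all 8 listed genes and in SOX9, the unlisted member with counts. The list summed to 11317 reads at 100 d, against 15175 and 25925 at 45 d, so the gap between the juvenile libraries was wider than that between the adult library and R92L1. SLC1A2, the main glutamate transporter of astrocytes, had 6820 reads at 100 d, against 8971 and 15607 at 45 d (log2 fold change -0.82, SE 0.28). SLC1A3, the glutamate transporter also carried by radial glia, had 2605 reads at 100 d, against 3615 and 6537 at 45 d (log2 fold change -0.93, SE 0.30), and GJA1, connexin 43, had 765 reads at 100 d, against 1005 and 1419 at 45 d (log2 fold change -0.65, SE 0.25). AGT, angiotensinogen, had 287 reads at 100 d, against 521 and 537 at 45 d (log2 fold change -0.89, SE 0.26), the closest juvenile pair of these 4 in raw reads. No oligodendrocyte marker was listed, and the 4 with counts summed to 2233 reads at 100 d, against 2182 and 2864 at 45 d. After division by the library sizes this sum was 2233 at 100 d, against 2399 and 2606 at 45 d, and so below both. The part of astrocyte number in the lower lipid and transporter genes was not tested.

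Lipid and sterol genes were lower in 14 of 20 and higher in 5, with a median log2 fold change of -0.65. FABP5, a fatty acid carrier, had 1378 reads at 100 d, against 1983 and 2856 at 45 d (log2 fold change -0.79, SE 0.25), FABP7, the carrier of radial glia and astrocytes, had 326 reads at 100 d, against 502 and 453 at 45 d, and DHCR7, the last enzyme of cholesterol synthesis, had 67 reads at 100 d, against 89 and 125 at 45 d. ELOVL2, which lengthens polyunsaturated fatty acids, had 454 reads at 100 d, against 622 and 670 at 45 d. Solute carriers, the largest class, were even at 20 above, 20 below and 2 not beyond both of 42, and their summed reads of 12689 at 100 d, against 15818 and 26295 at 45 d, were mostly those of SLC1A2 and SLC1A3. SLC22A16, an organic cation and carnitine transporter, had 145 reads at 100 d, against 237 and 326 at 45 d, and SLC5A12, a lactate transporter, had 103 reads at 100 d, against 31 and 48 at 45 d.

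Of 18 listed matrix genes 8 were above both and 10 below. Of the 10 matrix genes with at least 30 reads 1 was above and 9 below, and of all 1346 listed transcripts with at least 30 reads 679 were above and 635 below. COL4A1, the main collagen of basement membranes, had 31 reads at 100 d, against 90 and 114 at 45 d (log2 fold change -1.71, SE 0.39), NID1, which links laminin to that collagen, had 158 reads at 100 d, against 214 and 379 at 45 d (log2 fold change -0.88, SE 0.33), and POSTN, periostin, had 73 reads at 100 d, against 136 and 179 at 45 d (log2 fold change -1.10, SE 0.32). FNDC1, a fibronectin domain protein, had 19 reads at 100 d, against 57 and 100 at 45 d (log2 fold change -2.01, SE 0.49), and TLL2, a protease of the tolloid family that cuts matrix and BMP-binding proteins, had 24 reads at 100 d, against 92 and 61 at 45 d (log2 fold change -1.69, SE 0.53). The vessel list, to which COL4A1 and NID1 belong, summed to 447 reads at 100 d, against 686 and 959 at 45 d. PECAM1, an adhesion protein of endothelium, had 58 reads at 100 d, against 95 and 139 at 45 d, and VWF, made by endothelium, had 162 reads at 100 d, against 237 and 300 at 45 d, while CSPG4 of pericytes had 8 reads at 100 d, against 1 and 2 at 45 d. EFEMP1, an elastic fibre protein, was the matrix gene with at least 30 reads that was above both, with 221 reads at 100 d, against 98 and 144 at 45 d. In whole brain COL4A1 had 24 reads at 100 d, against 66 at 45 d, and NID1 214 at 100 d, against 378 at 45 d.

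Adhesion and junction genes were split at 17 above and 12 below of 29. VCAM1, an adhesion receptor for integrins, had 63 reads at 100 d, against 22 and 13 at 45 d (log2 fold change 1.82, SE 0.53), and PCDH21, a protocadherin-related protein, had 53 reads at 100 d, against 11 and 20 at 45 d. GJD2, the neuronal gap junction protein connexin 36, was below both with 56 reads at 100 d, against 89 and 161 at 45 d. Of 22 genes of signalling by Wnt, BMP, Notch and growth factors 13 were below and 9 above, and of the 12 with at least 30 reads 10 were below. At an unadjusted p of 0.05 in edgeR's quasi-likelihood test, however, 4 were higher and 3 lower, and at 2-fold 8 were higher and 8 lower. Beside FZD10, FZD7, another Wnt receptor, had 6 reads at 100 d, against 15 and 31 at 45 d, and BDNF, a neurotrophin linked to the addition and survival of HVC neurons, had 8 reads at 100 d, against 21 and 15 at 45 d. EGF had 261 reads at 100 d, against 334 and 523 at 45 d (log2 fold change -0.69, SE 0.28).

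Peptide genes were split, with 7 of 11 above and 4 below. TAC1 led those above, and CRHBP was among them (log2 fold change 0.45, SE 0.26). CPE, which trims peptide precursors, had 1192 reads at 100 d, against 1601 and 1803 at 45 d (log2 fold change -0.51, SE 0.23), and PCSK1, which cuts them first, had 94 reads at 100 d, against 60 and 70 at 45 d. Of 19 listed peptide and other G protein-coupled receptors 11 were above both, 7 below and 1 not beyond both. The share above (57.9%) was near the 53.5% of all listed. The opioid receptors OPRM1 and OPRK1 were above both, with 47 reads at 100 d, against 25 and 28 at 45 d, for OPRM1 and 17 at 100 d, against 8 and 5 at 45 d, for OPRK1. FAM19A1, a secreted chemokine-like protein of the brain, had 290 reads at 100 d, against 440 and 618 at 45 d (log2 fold change -0.85, SE 0.26).

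Among genes that act in the nucleus, of 18 listed chromatin genes 14 were above both and 3 below (77.8% above), and of 24 splicing and RNA-binding genes 18 were above and 6 below (75.0% above), beside 53.5% above over all listed. Few of these differences reached 2-fold. At 2-fold 3 chromatin genes were higher and 0 lower, and 3 splicing and RNA-binding genes were higher and 2 lower. Of all listed, 25.4% were higher and 23.9% lower at 2-fold. Of 25 transcription factors 16 were above and 9 below (64.0% above), but 2 were higher and 3 lower at an unadjusted p of 0.05 in edgeR's quasi-likelihood test, and 7 higher and 6 lower at 2-fold. PHF15, a zinc finger protein of histone acetylation complexes, had 364 reads at 100 d, against 167 and 186 at 45 d (log2 fold change 1.05, SE 0.26), and MLL5, a SET domain protein, had 2006 reads at 100 d, against 1294 and 1459 at 45 d (log2 fold change 0.55, SE 0.22). H3F3B, which codes for the replication-independent histone H3.3, was below both with 525 reads at 100 d, against 749 and 898 at 45 d. UPF3A, a factor of nonsense-mediated decay, had 889 reads at 100 d, against 343 and 501 at 45 d (log2 fold change 1.09, SE 0.24), PPIL4, a cyclophilin of the spliceosome, had 318 reads at 100 d, against 164 and 177 at 45 d (log2 fold change 0.90, SE 0.26), and SFRS3, a splicing regulator, was below both with 341 reads at 100 d, against 553 and 633 at 45 d. ZFHX4, a large zinc finger homeobox protein, had 3155 reads at 100 d, against 1615 and 2028 at 45 d (log2 fold change 0.80, SE 0.22), and DLX6, a homeobox gene of inhibitory neurons, had 32 reads at 100 d, against 16 and 20 at 45 d.

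Cytoskeleton and cilia genes were even, with 16 of 34 above and 16 below for the first and 12 of 23 above and 11 below for the second. EPB41L4B, which ties the membrane to actin, had 273 reads at 100 d, against 130 and 128 at 45 d (log2 fold change 1.08, SE 0.29), and DYNLT3, a light chain of dynein, had 429 reads at 100 d, against 569 and 1096 at 45 d (log2 fold change -0.92, SE 0.33). DNAH9, a motor of motile cilia, had 3 reads at 100 d, against 15 and 20 at 45 d (exact 95% counting interval of the ratio 0.0339 to 0.546), and WDR78, also of motile cilia, had 1 read at 100 d, against 6 and 16 at 45 d. Both belong to the list for ependyma and choroid plexus, which line the ventricle, and this list summed to 104 reads at 100 d, against 129 and 226 at 45 d. Cilia genes outside this list also went the other way. IFT74 had 986 reads at 100 d, against 481 and 898 at 45 d, and ZMYND10-1 had 5 reads at 100 d, against 0 and 0 at 45 d. Whether the dissections differed in ventricular tissue was not tested.

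A feature that the choice of members did not use was compared as a description, with no test. The genomic span, from the start to the end of the annotated transcript, had a median of 12775 bases for listed transcripts above both 45 d libraries and 8423 bases for those below both. When listed protein-coding transcripts were put in 4 groups of equal size by span, of the 402 in the shortest group, 43.3% were above both and 54.2% below, and in the longest group 59.2% were above and 39.3% below. Among transcripts not listed for age the longest group had 28.3% above and 19.3% below, and the shortest 22.9% above and 32.5% below. In both sets the share above was larger in the longest than in the shortest group, and the share below was smaller. Ribosomal proteins and genes of oxidative phosphorylation have short spans (medians of 3375 and 3267 bases), and calcium, sodium and chloride channels and vesicle release genes long ones (37277 and 22982 bases). The median log2 ratio of R92L2 to R92L1 after scaling was -0.04 in the shortest and 0.02 in the longest group of the listed. Span is not transcript length, RNA quality was not measured in these files, and the part of either in the class counts was not tested.

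**Figure D5:**
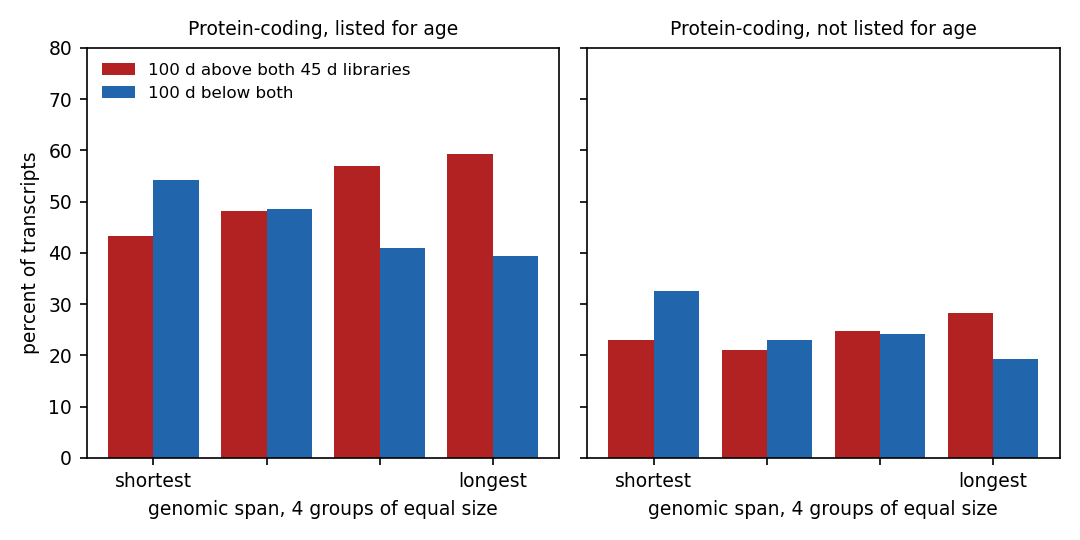
Share of protein-coding transcripts above both (red) and below both (blue) 45 d libraries at 100 d, by 4 groups of genomic span of equal size, for transcripts listed for age (left) and not listed for age (right). The share above both was 59.2% in the longest and 43.3% in the shortest group of the listed transcripts.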

How the data were processed

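Pooled RNA of male birds was made into cDNA with the NuGEN Ovation kit and sequenced. The authors trimmed reads, mapped them to taeGut1, made a count for each Ensembl transcript and compared groups with edgeR. The deposited tables hold these counts, unnormalised and whole, beside comparison columns of the authors (a log2 fold change, a p-value and its adjusted p-value). These comparison columns were not used, except that the ratio of adjusted to raw p-value at the first rank gave the 11258 transcripts tested. Each of the 4 deposited tables lists 1800 transcripts, so the total depth of a library is not given in them, and listed counts summed to 313901 (R92L3), 280436 (R92L1) and 340676 (R92L2). The names of columns do not say which 45 d library is the first replicate.

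Library sizes were TMM factors over 863 transcripts listed in both comparisons of HVC with whole brain. The transcripts with counts in the 3 HVC libraries (2516) and at least 10 reads over them (2345) were fitted with edgeR 4.0.16 (glmQLFit, glmQLFTest) in R 4.3.3, adjusted over 11258 and called at an adjusted p under 0.1 with R92L3 beyond both 45 d counts. In simulated counts for 2345 transcripts of this comparison, 68% of 4-fold and 10% of 2-fold differences were called. All simulated transcripts shared 1 dispersion, only those with a mean of at least 10 reads were changed, and the beyond-both rule was not applied. Real transcripts differ in spread, so these shares can be too high for the data, and they do not tell how many real differences were missed. A symbol was added to 8 of 102 transcripts known only by a RefSeq accession, 13 of which were found in the RefSeq table. Intervals and floors (3 reads over a group) cover counting error only. Of the others, DESeq2 1.42.0 and limma 3.58.1 were run as alternatives. Named genes were taken from those the study followed for age, listed cell type markers, those with reads at 1 age only and, per class, the 2 with most reads. As nothing was called, the 12 per direction with the smallest p among those with a symbol and a mean of at least 20 reads, and up to 4 per class with the smallest p, were added after their values were seen, and further class members are named from the same lists. Not every gene that these rules name is reported here. The members, gene classes and marker lists were chosen with earlier results of these data known.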

Additional observations from a re-analysis of the deposited data

How the results depend on the processing

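Counts of transcripts beyond both 45 d libraries were 963 above and 796 below in raw reads. After division by the library sizes they were 964 and 814. Where R92L3 had to differ from each 45 d library by more than counting noise they dropped to 464 above and 438 below, and at 2-fold beyond both to 312 and 302. Against a single 45 d library the counts were 965 to 984 above and 801 to 832 below, and those at least 2-fold apart 445 to 489 higher and 400 to 453 lower. The quasi-likelihood test called 0 in either direction under other scalings, with no filter, with at least 30 reads, with filterByExpr and at an adjusted p of 0.05, as did limma-voom. It called 7 higher and 3 lower when adjusted over the fitted transcripts alone. DESeq2 called 2 higher, the exact test of edgeR 25 higher and 10 lower, and a fit over the listed transcripts alone 10 higher and 4 lower. The fit over listed transcripts, filterByExpr and class counts by scaling were chosen after the data were seen. Of 203 named transcripts with a fitted change, none turned direction under any other fit. These 203 all lay above both or below both 45 d libraries in raw reads. A turn was therefore nearly impossible beforehand, and its absence is no measure of how stable they are. With R92L1 left out, 15 of them moved by more than the spread of the 45 d libraries, and with R92L2 left out 14.

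No paired analysis was possible because the 100 d group is 1 library. Leaving out a 45 d library left no residual degrees of freedom, so no count of calls was made there. Depth limits low transcripts most, since 139 listed transcripts had under 10 reads in all and were not fitted. Age, housing and the pool of birds cannot be told apart with 1 adult library.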

Other observations

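Transcripts without a protein product or a name held some of the widest gaps. A transcript annotated as a pseudogene on chromosome 1, from 2380775 to 2380943 (ENSTGUT00000005344), had 1731 reads at 100 d, against 306 and 164 at 45 d (log2 fold change 2.84, SE 0.41), and 6 of the 8 listed pseudogenes were above both 45 d libraries and 2 below. Such copies can take reads from a related gene, so which locus made this RNA is uncertain. Of 5 listed small nucleolar RNAs 4 were above both, with few reads apart from SCARNA6, a small RNA that guides changes to spliceosomal RNA, at 80 reads at 100 d, against 48 and 11 at 45 d.

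The 11 listed microRNA precursors summed to 6600 reads at 100 d, against 29004 and 10145 at 45 d. The precursor on chromosome 1 from 11244677 to 11244764 (ENSTGUT00000019385) made up most of these, with 4607 reads at 100 d, against 22179 and 7430 at 45 d (log2 fold change -1.76, SE 0.67), and a precursor not placed on a chromosome (ENSTGUT00000018345) had 211 reads at 100 d, against 1698 and 476 at 45 d. In whole brain the first had 37241 reads at 100 d, against 29201 at 45 d. Of the 11, 6 were above and 5 below both juvenile libraries, and the juvenile libraries lay far apart from each other. The library kit was not made for small RNA, and these precursors have no name in the deposited tables.

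An unnamed pair of overlapping transcripts outside the placed chromosomes shared its pattern. ENSTGUT00000017395 had 111 reads at 100 d, against 11 and 18 at 45 d (log2 fold change 2.94, SE 0.42), and ENSTGUT00000017403, which lies inside it, had 88 reads at 100 d, against 10 and 15 at 45 d. The 2 can hold the same reads and count as 1 observation. ERCC5, a DNA repair endonuclease, had 45 reads at 100 d, against 8 and 3 at 45 d. In whole brain it had 213 raw reads at 100 d, against 9 at 45 d. This was the largest ratio of raw reads at 100 d to 45 d there among the members named that had whole brain counts at both ages. The ERCC5 entry is short and not placed on a chromosome (109623797 to 109626201), and whether it covers the whole gene was not checked.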
